A study of Drosophila melanogaster with 4 samples.

Results

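The genes described here work at synapses and at cell junctions, and circular RNAs (circRNAs, here also called circles) were listed for all 6 of them. A circle forms when the splice donor at the end of an exon is joined back to the acceptor of that exon or of one upstream. Cadps (listed under its older name Caps), Rim and Sap47 belong to the machinery of transmitter release. Spn, dlg1 and scrib encode scaffold proteins with PDZ domains, folds that hold the tails of membrane proteins in place. The deposited table listed 2563 circles, of which 55 came from these 6 genes. They were taken by the gene symbol in the table, which gave 52, or by the RefSeq accession, which gave 3 more circles of scrib listed under the former gene names CG5467 and CG31082.

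The table was deposited with ribosome footprinting of Drosophila melanogaster heads. In this assay a nuclease removes RNA that no ribosome shields, and the short stretches under ribosomes are sequenced. The labels give 4 libraries, of which 2 are labelled low detergent and 2 high detergent. Strain, sex and age of the flies are not given in the labels. The labels' protocols cite a published homogenization for heads 1 and 2. For heads 3 and 4 they give 200 frozen heads and a lysis buffer holding 0.1% of the detergent Triton X-100 and 100 µg/ml cycloheximide, which arrests elongating ribosomes. The labels do not say which head numbers are the low and which the high detergent libraries. No buffers were therefore compared. The library columns were left out altogether, although counts by head number would not need the labels. All reads below are the authors' counts over all samples together, with no replicate error. The table does not say so, but each read was assumed to cross the junction that closes the circle. The whole table held only 230 such reads (95% exact Poisson interval 201 to 262), on 122 of its circles. The other 2441 circles had 0 reads, and how the listed circles were found is not given in the sources used here.

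Release of transmitter starts when a vesicle loaded with transmitter docks at the active zone, is primed and then fuses in response to calcium. Rim is a scaffold of the active zone that links vesicles and calcium channels, Cadps promotes release from dense-core vesicles, and Sap47 is an abundant protein of synaptic terminals. Spn (spinophilin) binds actin and protein phosphatase 1 and in fly terminals acts at active zones. dlg1 (discs large) scaffolds channels and adhesion proteins at the neuromuscular junction, and together with scrib (scribble) it sets the polarity of epithelial cells.

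Footprint reads fell on 4 of the 55 circles, from 3 of the 6 genes, and summed to 6 reads (Poisson interval 2.20 to 13.1). This was 2.61% of the table's reads. The 4 circles were 7.27% of the 55 (exact binomial interval 2.02% to 17.6%), and the share with at least 1 read over all 2563 circles was 4.76%, inside that interval. The count is therefore not a result about these genes as a group. With at least 2 reads it was 2 of 55, against 1.01% of all circles. Of all host genes 9.24% had a circle with a read, and 0.840% had 2 or more such circles, among them Spn. Spn had 3 reads on 2 circles, Sap47 had 2 reads on 1 circle and Rim had 1 read on 1 circle. The 35 circles of Cadps, dlg1 and scrib had 0 reads, and the 3 genes with reads listed 20 circles. A count of 0 has an upper Poisson limit of 3.69 reads, which is more than the reads of Spn, Sap47 or Rim. The genes therefore cannot be ranked at this depth.

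The Spn reads fell on a pair of nested circles that end at the same splice donor. The shorter lies on chromosome 3L from 2534711 to 2536218 in dm3, on the minus strand, and had 1 read (0.0253 to 5.57). Its span of 1508 bp equalled 1 exon, exon 2 or 3 of 14 to 16 depending on the transcript, and in all 11 annotated transcripts this exon holds the start codon of Spn. It carries 7 bases of untranslated leader and the first 1501 coding bases. The longer circle runs from 2534711 to 2541403 and had 2 reads (0.242 to 7.22). It adds the exon before, so that its 6693 bp span encloses 2 exons of 1935 bases in all, of which 434 are leader and the same 1501 are coding.

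Both Spn circles enclose the first 23.3% to 29.7% of the coding sequence. The shorter exonic length of 1508 bases left a remainder of 2 when divided by 3, whereas the 1935 bases of the longer circle are a multiple of 3, so a reading frame that passes its junction returns to itself. Whether a stop codon lies in that frame was not examined, as no sequence was used. The leader exon alone was also listed as a circle, of 427 bp from 2540977 to 2541403, with 0 reads. The longer circle thus shared its donor at 2534711 with the shorter circle and its acceptor at 2541403 with the leader circle, and the reads lay on the circles that hold the start codon.

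The remaining 4 Spn circles had 0 reads. A 1-exon circle of 1120 bp from 2524599 to 2525718 holds the coding stretch that directly follows the start codon exon. Circles of 601 bp and 769 bp share a donor at 2511163, and a circle of 1194 bp lies from 2509364 to 2510557, further along the coding sequence. Of the 7 Spn circles, 4 matched 1 exon.

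Sap47 had its 2 reads (0.242 to 7.22) on a circle that reaches the end of the coding sequence. It lies on chromosome 3R from 11779880 to 11783641, on the plus strand, and its 3762 bp span matched 5 exons in 5 of 12 annotated transcripts. In all 5 it holds the stop codon and no start codon, with 577 to 610 coding bases that make up the stretch from 44.1% or 45.6% of the coding sequence to its end. Its exonic length was 901 to 1648 bases depending on the transcript, and left a remainder of 1 when divided by 3 in each of these transcripts. Of all circles in the table with a stop codon and no start codon, 1 of 47 had a read (2.13%, 0.0539% to 11.3%), and it was this circle.

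Other Sap47 circles used the same ends without a read. The acceptor at 11779880 was shared by 3 circles and the acceptor at 11780305 by 3, while the donors at 11780927, 11782029 and 11783641 joined 2 circles each. With the acceptor at 11780305, the donor at 11783641 gave a circle of 3337 bp with 0 reads that also holds the stop codon. The shortest Sap47 circle, of 121 bp from 11783482 to 11783602, had 0 reads, and neither of its ends was at an annotated exon end. Sap47 has at most 10 exons in a transcript, the fewest of the 6 genes, and listed 8 circles.

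The Rim read lay on a circle apart from the rest of that gene. This circle is on chromosome 3R from 13715317 to 13717229, on the minus strand, and had 1 read (0.0253 to 5.57). It matched exons 11 to 14 in 12 of 14 annotated transcripts, with 1073 exonic bases, all coding, and no start or stop codon. It shares no end with another circle, whereas the other 4 Rim circles overlap in the part of the gene that follows. Of these, 3 use the acceptor at 13712263, with spans of 938 bp, 5364 bp and 7764 bp, and the fourth, of 8766 bp, shares its donor at 13704500 with the 7764 bp circle. No Rim circle had an exonic length that was a multiple of 3 in every matching transcript.

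**Figure D1:**
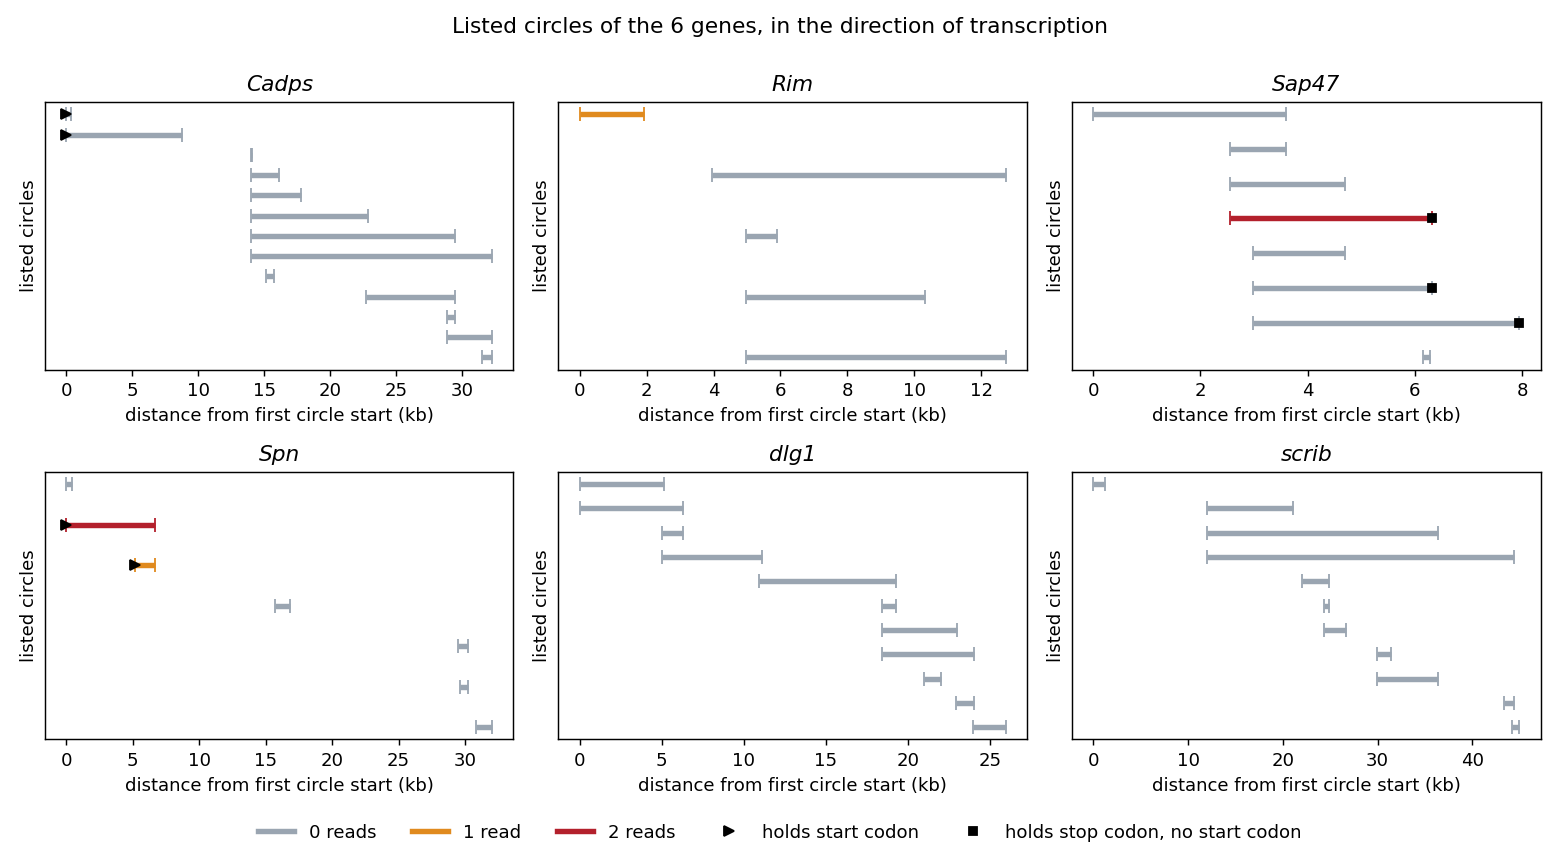
Each line is 1 listed circle, drawn by distance in kb from the first circle start in the direction of transcription, with colour for the reads over all samples. Triangles at the circle start mark circles that hold a start codon and squares at the circle end those with a stop codon only. The 2 Spn circles with reads end together, and the Rim circle with a read stands apart from the other 4.

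Cadps had the most circles of the 6 genes, 13, and 0 reads. On chromosome 4, 6 of them started at the acceptor at 1250828, which is exon 13 to 15 of 23 to 25. They ran to 6 different ends, with spans from 137 bp to 18308 bp. Of these ends, that at 1252976 was not at an annotated exon end. The donors at 1266305 and 1269135 were each used by 3 circles. A second group lay at the start of the gene, where circles of 382 bp and 8769 bp began at 1236855 with exon 2 and hold the start codon in all 5 transcripts. They carry 41 leader bases and 341 or 630 coding bases, and both had 0 reads. At this depth a read on them could have been missed, and they cannot be told from the Spn start codon circles with 1 or 2 reads. For circles on chromosome 4 the share with at least 1 read was 10.7% in the table, against 0 of 13 here (exact upper limit 24.7%).

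dlg1 listed 11 circles on chromosome X, all at exon ends and all within coding sequence without a start or stop codon, with 0 reads. They form a chain along the gene in which neighbouring circles overlap or share ends. The acceptor at 11289273 was used by 3 circles, of 864 bp, 4577 bp and 5593 bp, and the acceptors at 11270875 and 11275889 by 2 each. The exonic lengths ran from 120 bases in a circle of 1091 bp to 2209 bases in the circle of 5593 bp, which held 847 to 2209 depending on the transcript. The longest span, 8332 bp from 11281805 to 11290136, held 964 or 988 exonic bases.

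scrib listed 11 circles on chromosome 3R, also with 0 reads. Its acceptor at 22392083 was used by 3 circles, of 9088 bp, 24357 bp and 32352 bp. The last has the longest span of the 55 and enclosed 18 to 20 exons. The 9 scrib circles at exon ends were coding without a start or stop codon. A circle from 22410022 to 22416439 had both ends at annotated exon ends, but no single transcript joined them. A circle from 22410022 to 22411440 had an exon end at its first coordinate only, and the same held for the Cadps circle from 1250828 to 1252976.

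The 6 genes listed many circles each. Host genes in the table had a median of 1 circle, and 8.48% had at least 5. The members had 5 (Rim), 7 (Spn), 8 (Sap47), 11 (dlg1 and scrib) and 13 (Cadps). At least 13 circles were listed for 9 of 1191 host genes, and at least 11 for 15. Of the 95 other host genes with at least 5 circles, 25 had a circle with a read (26.3%), against 3 of these 6, and with these 6 included the share was 27.7%.

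**Figure D2:**
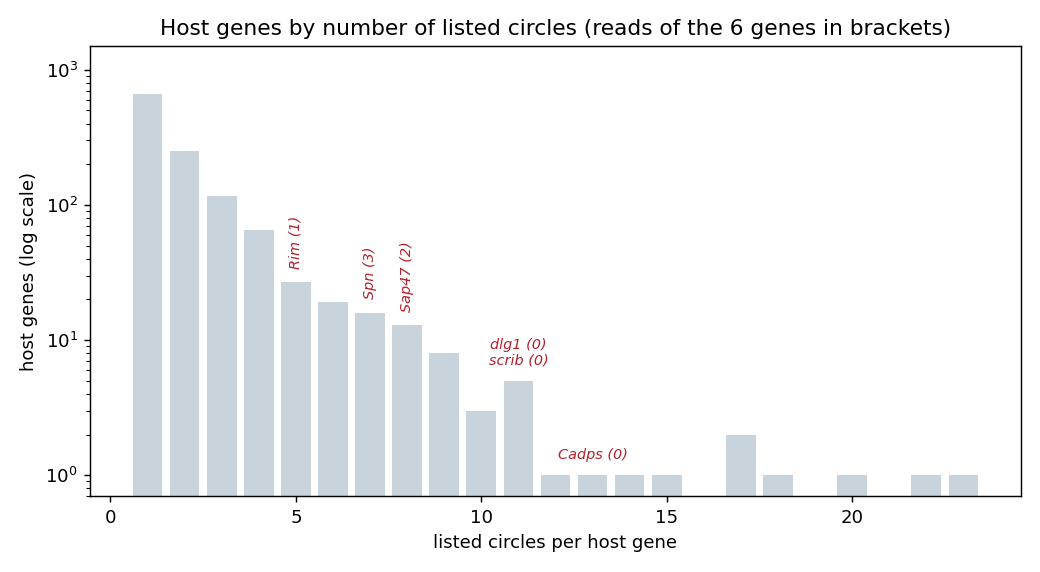
Bars give the number of host genes (log axis) by their number of listed circles, and the names mark the 6 genes with their reads over all samples in brackets. All 6 lie at 5 circles or more, and the 3 with the most circles had 0 reads.

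Host genes with the same number of circles and of reads were named as the nearest in this pattern. dlg1 and scrib shared 11 circles and 0 reads with each other and with 3 more genes, namely CG17816, sif and the voltage-gated sodium channel para. For Sap47, with 8 circles and 2 reads, they were Dpp10 and toy. For Rim, with 5 and 1, they were ct and mtd. For Spn, with 7 and 3, it was l(3)80Fg, and Cadps had no match.

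The 6 genes are longer than most hosts and have more annotated transcripts. Their lengths in the annotation ran from 27025 bp (Sap47) to 67702 bp (scrib), against a median of 20948.5 bp over host genes. The largest number of exons in a transcript was 10 for Sap47, 16 for Spn, 18 for dlg1, 25 for Cadps and Rim and 27 for scrib, against a median of 9. Between 5 (Cadps) and 21 (dlg1) transcripts were annotated, against a median of 4.

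The circles were mostly at exon ends and mostly in the interior of the coding sequence. The span of 51 of the 55 equalled an annotated exon block of the gene (92.7%), against 76.2% of all circles. Of these 51, 4 held a start codon (7.84%, 2.18% to 18.9%), namely 2 of Cadps and 2 of Spn. The share was 37.8% over all circles with an assigned position, and 29.6% (25.7% to 33.8%) for other host genes with at least 5 circles (27.6% with these 6 included). Coding sequence without a start or stop codon was enclosed by 43, a stop codon by 3, all of Sap47, and 1 circle of Spn was untranslated. The first exon of the circle was exon 2 in any matching transcript for 9 of the 51, against 44.8% in the table. Circles of 1 gene share exons, so these shares were not tested.

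The start codon circles of these genes held 3 of the 6 reads. A read lay on 2 of 4 circles with a start codon (exact interval 6.76% to 93.2%). The share of such circles in the table was 7.99%, inside that interval, so the count is not a result about start codons. Of the circles without a start codon 2 of 47 had a read, against 4.59% in the table. Both start codon circles with reads are the nested Spn circles, so they are not independent of each other.

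**Figure D3:**
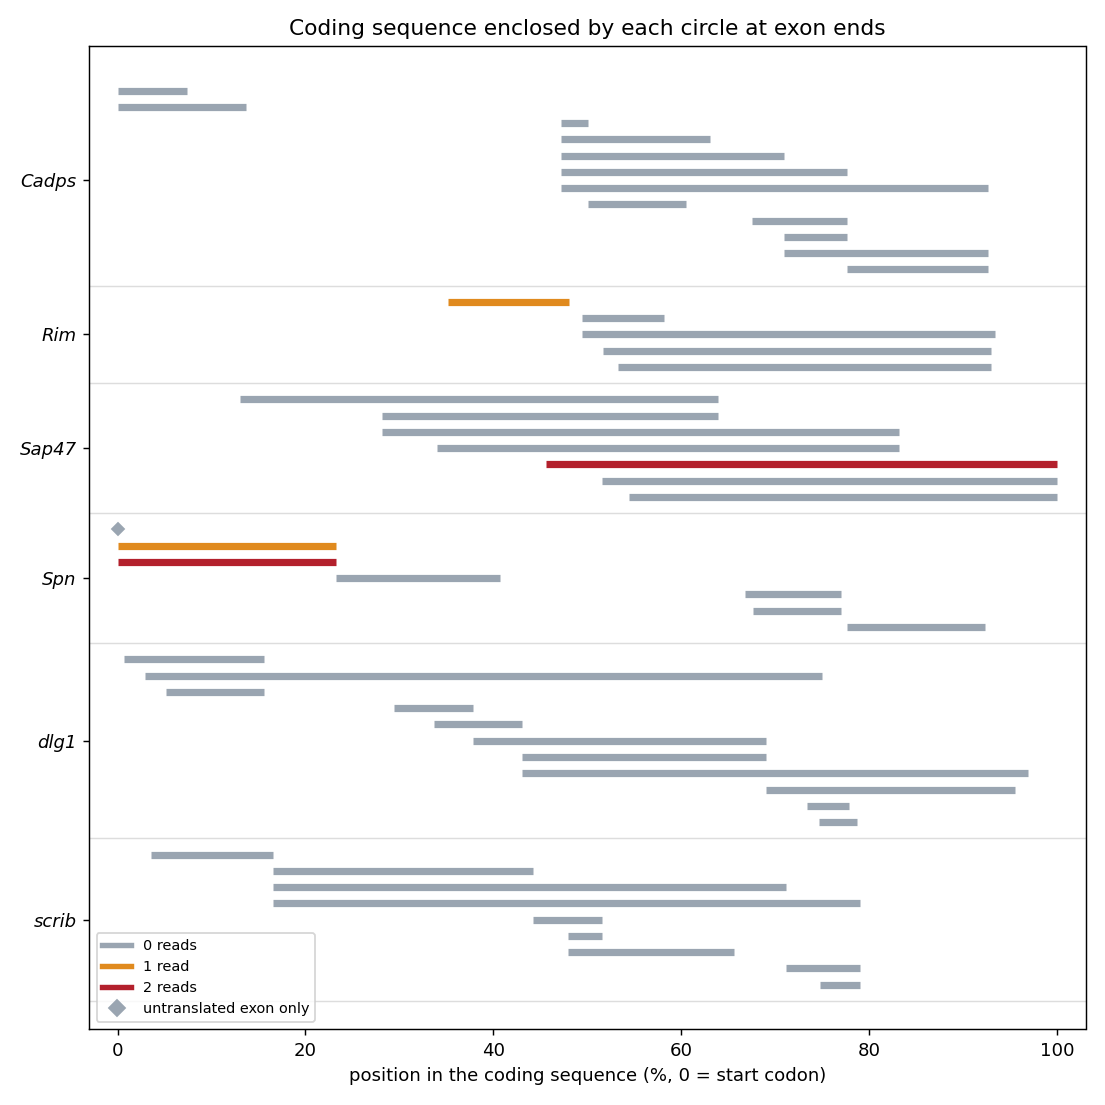
Each line shows the part of the coding sequence, in percent from the start codon, that 1 circle at exon ends encloses, in the matching transcript with the longest coding sequence, with colour for reads. The circles with reads enclose the start of the coding sequence in Spn and the stretch from 45.6% to its end in Sap47. In Rim the circle with a read lies before the others.

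Shared back-splice ends were common. An end was shared with another circle of the same gene by 46 of 55 circles (83.6%), against 45.5% of all circles and 70.7% in other host genes with at least 5 circles. The count was 12 of 13 for Cadps, 4 of 5 for Rim, 7 of 8 for Sap47, 5 of 7 for Spn and 9 of 11 for both dlg1 and scrib. A read fell on 3 of the 46 circles with a shared end and on 1 of the 9 without, the Rim circle. In the table the shares with a read were 5.14% and 4.44%. Cadps used 6 acceptors and 9 donors for its 13 circles, and dlg1 and scrib each used 7 acceptors and 8 donors for 11. Counted as donors here were also the ends at 1252976 in Cadps and 22411440 in scrib, which are not at annotated exon ends.

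The median span of the members was longer than that of the whole table. The median over the 55 was 2150 bp, with an interval from order statistics of 1257 to 4577 bp, against 1042 bp for the table. For other host genes with at least 5 circles it was 1371.5 bp, inside that interval. By gene the median span ran from 1120 bp for Spn, through 2302 bp for scrib, 2743.5 bp for Sap47, 3458 bp for Cadps and 4577 bp for dlg1, to 5364 bp for Rim. The ranges of the 6 genes overlapped, from 121 bp in Sap47 to 32352 bp in scrib. The 4 circles with a read spanned 1508 bp to 6693 bp, within the range of those without.

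Exonic length, which leaves introns out, differed less from the table than span did, though over another set of circles. It was taken for 51 members and 1924 circles of the table, whereas span covered all 55 and 2563. The median exonic length was 819 bases over the 51 circles, taking the median of the matching transcripts for each, against 647 bases in the table. They held a median of 3 exons, against 2. The exonic length was a multiple of 3 in every matching transcript for 12 of the 51 (23.5%), against 34.9% in the table. These were 4 circles of scrib, 3 of dlg1, 2 each of Sap47 and Spn and 1 of Cadps.

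**Figure D4:**
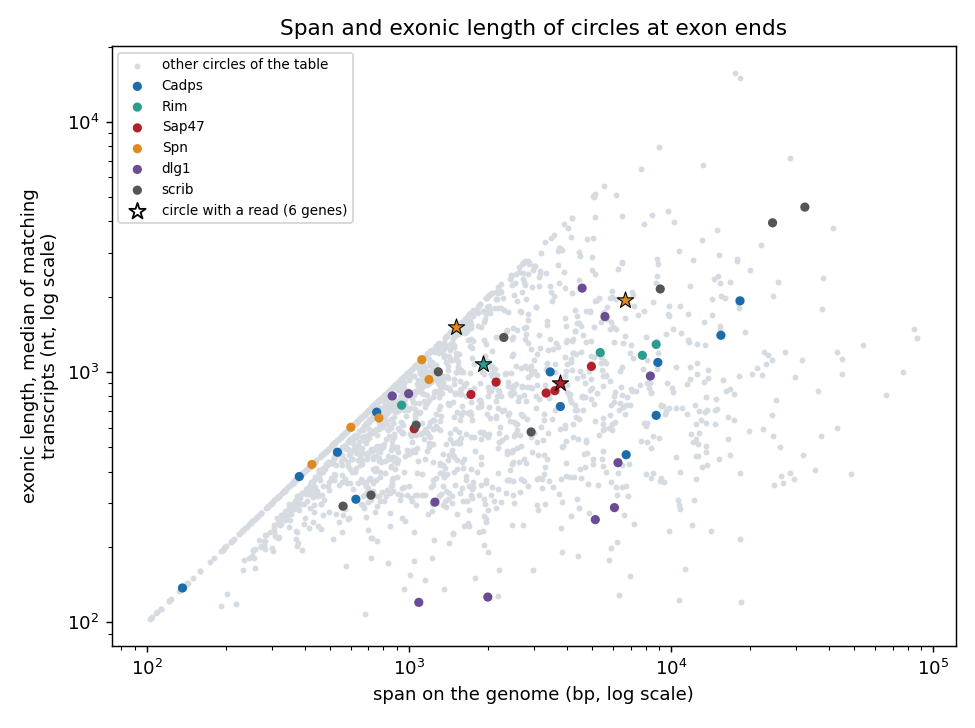
Each point is 1 circle at exon ends, with its span on the genome in bp and its exonic length in nt on log axes, in grey for the table and in colour for the 6 genes. Stars mark the 4 circles with a read, which lie between 1508 bp and 6693 bp in span, among the other points.

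The introns on either side of the circles with reads varied widely. The longer Spn circle was preceded by an intron of 12654 bp and followed by one of 8992 bp. The shorter had the same downstream intron, and 297 to 4758 bp upstream depending on the transcript. The Sap47 circle had 2307 or 2316 bp upstream and 1014 to 1400 bp downstream, and the Rim circle 593 bp and 2051 bp. Over the members the median was 2051 bp upstream and 2534 bp downstream, against 3951 bp and 2402.5 bp in the table. By gene the upstream median ran from 879 bp for Rim to 6929 bp for scrib.

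Other genes of the same pathways were taken from lists of 47 genes of vesicle release and the active zone and 39 genes of PDZ scaffolds and their partners. Without the 6 genes, 20 of 44 release genes had listed circles, 70 in all, and 1 circle had a read (1.43%, 0.0362% to 7.70%). It was a circle of Liprin-gamma, which had 2 reads on 7 circles. The share with a read over all circles of the table was 4.76%, inside this interval. The active zone genes brp (7 circles), unc-13 (7, a priming factor), cac (9, a calcium channel), Fife (5) and cpx (5, complexin, a clamp of fusion) had 0 reads.

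Among PDZ scaffolds and partners, 19 of 35 other genes had listed circles, 48 in all, and 4 circles from 4 genes had reads (8.33%, 2.32% to 20.0%). This interval also holds the 4.76% of all circles. Of the 31 reads on these 4 circles, 28 were on 1 circle of Sh, the Shaker potassium channel, whose tail binds dlg1. l(2)gl, the partner of scrib and dlg1 in cell polarity, had 1 read on 3 circles, and Magi and pyd, both junction scaffolds, had 1 each. The circles of Sh, l(2)gl and Magi with reads hold a start codon, and that of pyd is coding without one. Of all circles in the table with a read and an assigned position, 58 of 113 held a start codon (51.3%). No read fell on the 11 circles of sif or the 6 of sdt.

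**Figure D5:**
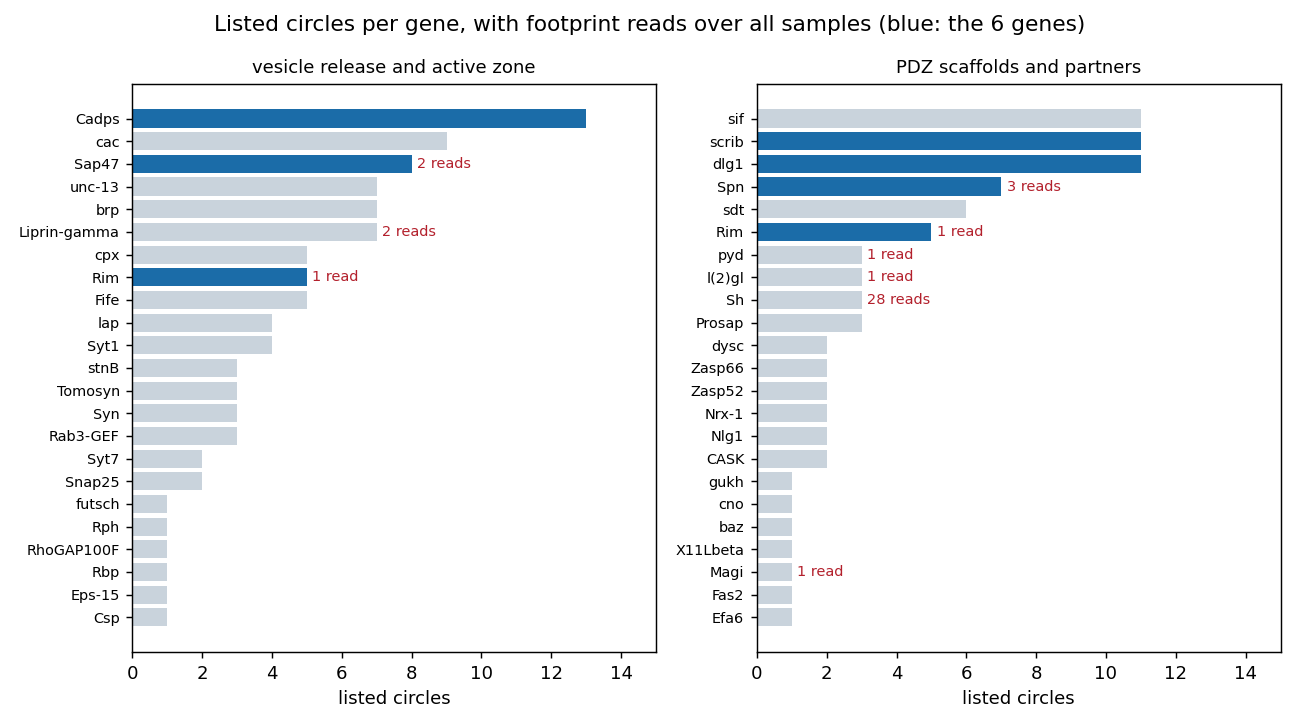
Bars give the number of listed circles for each gene of the release and PDZ lists that has any, with the 6 genes in blue and reads over all samples printed at the bar end. Reads are few on both lists except for the 28 of Sh.

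Markers of cell types in the head gave no check of the tissue. The table had 0 reads on 11 circles of neuronal markers (brp and Syt1), 2 of glial, 7 of photoreceptor, 6 of fat body and 10 of muscle markers. Footprints on linear mRNAs were not in the table used here, so the levels of the host mRNAs were not analysed.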

How the data were processed

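The values are the authors' deposited whole-number count per circRNA over all samples, not normalized. The submitters' processing notes name cutadapt 1.9.1 and the genome build dm3. Ribosomal RNA reads had been removed, per the file headers. The aligner was not given in the sources used here, nor was the circRNA caller. The 4 columns of counts per library were not used. Their head numbers could not be matched to the labels, so the planned edgeR comparison of buffers was not made.

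The members and lists were chosen with earlier results of these data known, so no test was made over them. All 6 genes and, of the lists, genes with a read or at least 5 circles were named. Positions are in dm3 as deposited, with 1 added to the first coordinate, which was assumed to count from 0. Accessions were matched to current symbols with NCBI's gene table of release 6 (98.7% of names, and 55 of 55 members). Spans were compared with exon blocks of the host gene in Ensembl release 115 (BDGP6), by length only. For 2 Cadps circles with several matching blocks, the block at the distance shared by the gene's other circles was taken; all 51 matched members lay at such a distance. Single ends were judged by the same distances. The matching was tested on simulated data. Intervals of counts and shares are 95% exact Poisson or Clopper-Pearson and cover counting error only, since PCR duplicates are not told apart. That of the median span is from order statistics. Python 3.11.15 and scipy 1.17.1 were used.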

Additional observations from a re-analysis of the deposited data

How the results depend on the processing

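Read depth limits these results. With at least 2 reads, 2 of the 4 circles with a footprint remained, 1 of Spn and 1 of Sap47 (1.01% of all circles in the table had that many), and without Spn 2 remained, of Sap47 and Rim. The count stayed at 4 with hosts from the accession alone, with circles at exon ends alone and with the symbol in the name column alone, which listed 52 circles in place of 55. The count of 46 circles with a shared end did not move with a tolerance of 5 bp, nor did that of 4 with a start codon when all matching transcripts had to hold it or spans could differ by 1 base. The median span was 2302 bp at exon ends alone. The settings without Spn and with the name column alone were chosen after seeing the data. No paired analysis was possible because the only column used was the authors' count over all samples. Leaving out 1 library at a time would not need the labels, but was not run, as the per-library counts were not used. Whether the 2 reads on a circle of Spn or of Sap47 came from 1 library was therefore not examined. The detergent comparison with its alternatives was not run.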
